A study of Mus musculus with 5 samples.

Results

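Livers of mice given troglitazone (TGZ) were compared with livers of mice given rosiglitazone (RGZ), both without buthionine sulfoximine (BSO), across all genes of the array. The members of the comparison were 2 of the 5 samples, 1 array for each compound. Every mouse of the series was a female BALB/c animal aged 6 weeks, injected intraperitoneally, and its liver was taken 6 hr later. The 5 groups were TGZ at 300 mg/kg, RGZ at 300 mg/kg, BSO at 700 mg/kg plus TGZ at 300 mg/kg, BSO at 700 mg/kg plus RGZ at 300 mg/kg, and vehicle, and a group given BSO alone was not analysed here. RNA of 6 livers was pooled in equal amounts for each group and hybridised to 1 single-colour array, so 1 pool stood for each group and no difference between groups could be tested. The doses were equal by weight and not by molecule number. A level below is the spot signal of a gene as a multiple of its array's 75th percentile of probe signals, and a difference is TGZ minus RGZ on the log2 scale of those levels. A gene was compared when the scanner software called it well above background on at least 1 of the arrays compared, which 21516 of 36870 gene names were, and it was counted as higher or lower when it differed by at least 2-fold.

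Thiazolidinediones such as TGZ and RGZ bind the nuclear receptor PPAR gamma, which in fat cells switches on genes of lipid uptake and storage and raises the body's response to insulin. The compounds share the thiazolidinedione ring and differ at the other end of the molecule, where TGZ carries a chroman group like that of vitamin E and RGZ a pyridyl amine. TGZ was withdrawn from use because of liver injury, which the title of the study concerns. Liver has little PPAR gamma next to fat, and hepatocytes, its main cells, control blood glucose, make cholesterol, bile acids and plasma proteins, and break down drugs. BSO blocks the synthesis of glutathione, the main small thiol antioxidant of the cell.

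Processed signals had a 75th percentile of 141.5 on the TGZ array and of 208.4 on the RGZ array, with 169.8 for BSO plus TGZ, 191.2 for BSO plus RGZ and 184.5 for vehicle. Between 51.9% and 55.2% of 56605 probes exceeded background clearly on the 5 arrays, and no spot was saturated. Of the genes compared, 19146 were well above background on both arrays, 697 on the TGZ array only and 1673 on the RGZ array only. For a gene well above background on 1 array, the floor of the other array was used (0.0663 for TGZ and 0.0499 for RGZ), and its fold is a bound, written "at least". The 95% interval printed beside a fold reflects the error that the scanner software attaches to each spot. Such intervals span a factor of 1.32 either way for a typical gene and leave out the spread between animals, pools and labelling reactions. For a bound, the interval was drawn around the bound with the relative error of the dim spot, so it does not limit the fold itself. All 18 hepatocyte markers on the list were well above background, with albumin (Alb) at 2595 with TGZ, 1849 with RGZ and 1951 with vehicle.

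With TGZ, 1985 genes were at least 2-fold higher than with RGZ (9.23% of the genes compared) and 1806 were at least 2-fold lower (8.39%). At 4-fold the counts were 580 higher and 366 lower, at 16-fold 60 and 14, and at 32-fold 20 and 3, so the largest differences ran mostly to the side of higher signal with TGZ. The median difference over all genes compared was 0.06. Under spike-in scaling, which lowers every difference measured on both arrays by the same amount and put that median at -0.47, 965 genes were higher and 4638 lower, and with normexp background correction 951 were higher and 844 lower. Of 917 genes past 2-fold on both arrays that had another well measured probe, 83.8% had every such probe on the same side of 0, against 68.35% of all 6218 genes measured on both arrays with another such probe. Of 3044 genes past 2-fold and measured on both arrays, 184 had an interval that included a fold under 1.5.

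**Figure D1:**
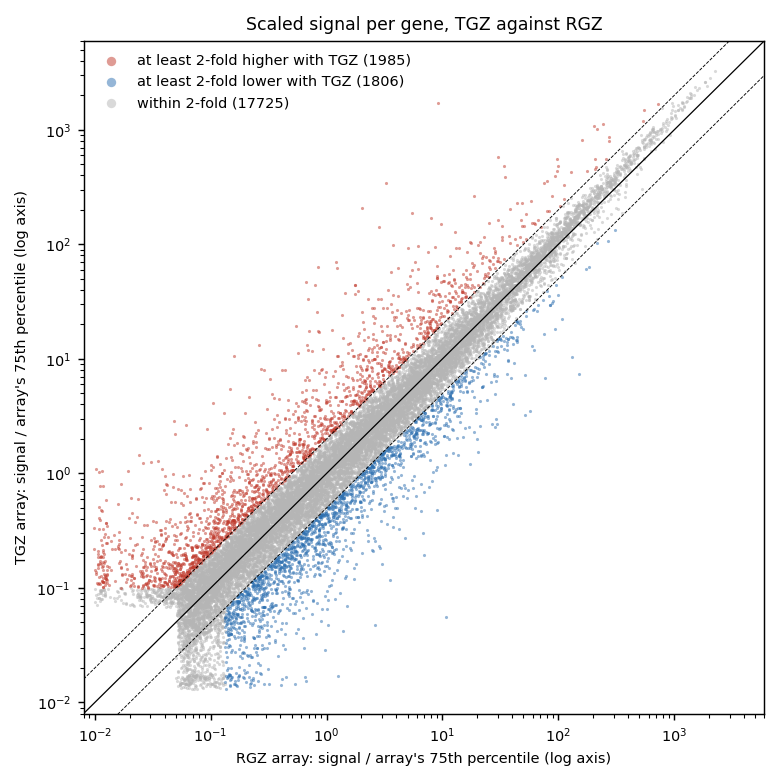
Level of each of the 21516 genes on the TGZ array (vertical) against the RGZ array (horizontal), both as multiples of the array's 75th percentile on log axes; the solid line marks equal levels and the dashed lines 2-fold. The 1985 red genes were at least 2-fold higher with TGZ and the 1806 blue genes at least 2-fold lower; grey genes outside the dashed lines were dim on 1 array and their bound lay within 2-fold.

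The largest measured difference was in Igfbp1, which encodes a secreted protein that binds insulin-like growth factors and is made by hepatocytes when insulin action is low. Its level was 1719 with TGZ, 9.12 with RGZ, 1329 with BSO plus TGZ, 8.08 with BSO plus RGZ and 29.96 with vehicle, so both arrays with TGZ lay far above vehicle and both with RGZ below it. The TGZ level was 188-fold that of RGZ (interval 143 to 249), read by a probe at chr11:7102442-7102501 (mm9, as the array files give it). Cd14, the co-receptor for bacterial lipopolysaccharide, was next at 209 with TGZ and 2.02 with RGZ (104-fold). Pdk4, the kinase that shuts off pyruvate entry into the citric acid cycle, followed at 63.7 against 0.838 (76-fold), and Ppp1r3g, which brings protein phosphatase 1 to glycogen, at 46.8 against 0.661 (70.8-fold). In vehicle liver the levels of Cd14, Pdk4 and Ppp1r3g were 0.85, 0.671 and 1.36, far nearer those with RGZ.

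Several of the other genes at the top encode regulators of transcription and RNA. Atf3, a stress-induced transcription factor, had a level of 10.7 with TGZ and 0.159 with RGZ (66.9-fold), and Nr4a1, an orphan nuclear receptor of the immediate early class, 33.1 against 0.697 (47.5-fold). Arid5a, which stabilises inflammatory messenger RNAs such as that of interleukin 6, was 57.2-fold higher with TGZ, and Btg2, an antiproliferative p53 target, 50.5-fold. Genes of signalling and of the cell surface made up much of the rest: Sphk1 (sphingosine kinase 1) was 50.5-fold higher, Hcar2 (the niacin and ketone body receptor) 43-fold and Il1r2 (the interleukin 1 decoy receptor) 36.7-fold. Hilpda, a lipid droplet protein that inhibits lipolysis, stood at 44.4 with TGZ and 0.789 with RGZ (56.2-fold). Retreg1, a receptor for autophagy of the endoplasmic reticulum, was 34.6-fold higher, and the long non-coding RNA 3930402G23Rik 39.4-fold. Among genes not well above background with RGZ, Thbs1 (thrombospondin 1) was at least 57-fold higher with TGZ, Slc7a6 (a transporter of basic amino acids) at least 49.9-fold, Myh7 (a cardiac myosin heavy chain) at least 44.1-fold and Cfd (adipsin) at least 25.8-fold.

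On the lower side the largest difference was a bound. Cyp7a1, the rate-limiting enzyme of the classic route of bile acid synthesis, had a level of 10.8 with RGZ and was not well above background with TGZ, which makes it at least 163-fold lower with TGZ (probe at chr4:6193456-6193515, mm9). Its level was 0.47 with BSO plus TGZ, 6.5 with BSO plus RGZ and 4.18 with vehicle, so vehicle lay below both arrays with RGZ and above both with TGZ. The largest measured differences were in Fam89a (0.195 with TGZ and 6.94 with RGZ, 35.6-fold lower) and Dclk3, a kinase of the doublecortin-like family (0.118 and 3.53, 29.8-fold lower). Wnt5b, a WNT ligand, was 22.3-fold lower and Kcnj10, a potassium channel, 21.4-fold lower. Better known liver genes in this group were Angptl8, a hepatokine that rises with feeding and restrains lipoprotein lipase (7.39 with TGZ, 152 with RGZ, 20.6-fold lower), G6pc, glucose-6-phosphatase, which releases glucose from the liver (3.54, 57.2, 16.2-fold lower), and Dbp, a clock-controlled transcription factor (3.23, 51.7, 16-fold lower). The remaining genes were Anks4b, Spata2l, Rtn4rl1, BC039771, Asap3, Gm5524, Hdhd3 and Cpsf4l, which were 14-fold to 18.5-fold lower. Further bounds on the lower side were Kcnk5 (a potassium channel, at least 20.9-fold), Cx3cr1 (the fractalkine receptor, at least 19-fold) and Cxcl13 (a chemokine for B cells, at least 14.6-fold). The vehicle level was nearer the RGZ level than the TGZ level in all 30 of the largest measured differences and in 3 of the 4 largest bounds of each direction, the others being Cfd and Cxcl13, against 70.7% of all genes compared. All 30 measured differences were past 2-fold in the same direction between BSO plus TGZ and BSO plus RGZ.

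**Figure D2:**
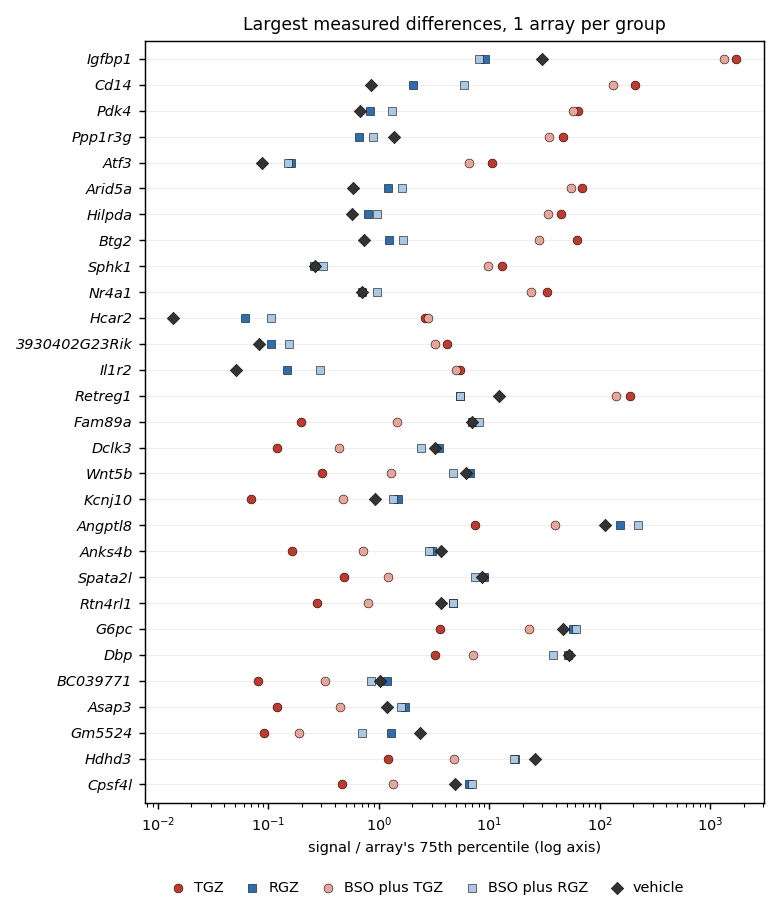
Levels of genes with the largest measured differences on all 5 arrays, 14 of them higher and 15 lower with TGZ, as multiples of the array's 75th percentile on a log axis; each point is 1 array of pooled RNA, so there are no error bars. In every gene the vehicle diamond lies nearer the dark blue square of RGZ than the dark red circle of TGZ, and the paler BSO points lie on the same sides as the points without BSO.

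Promoter sequences are shown for 7 genes whose differences recur below, so that short motifs known from these pathways can be seen beside the values. All 7 hold a motif, and where a gene had several windows the one with most motifs was printed. Among leading genes, Atf3, Arid5a, Pdk4, Hilpda and Angptl8 held none of the motifs counted below, while Nr4a1 and Sphk1 held some. The 7 genes therefore do not stand for the called genes. Each sequence is the 250 bases before the start site on the gene's own strand, from RefSeq on GRCm38.p6, 5′ to 3′, with motif matches in capitals. Igfbp1 (chr11:7197537-7197786, plus strand, 188-fold higher) and G6pc (chr11:101367466-101367715, plus strand, 16.2-fold lower) are textbook targets of the insulin-inhibited factor FOXO1 and hold the core CAAAACA of the insulin response sequence (a motif chosen after the sequences were seen), in G6pc on the other strand beside a TATA box. Btg2 (chr1:134079156-134079405, minus strand) and Maff (chr15:79347270-79347519, plus strand) hold the cyclic AMP response element TGACGTCA, and Maff also the E-box CACGTG. Cidec (chr6:113434765-113435014, minus strand) holds the AP-1 motif TGACTCA. Hmgcs1 (chr13:119690101-119690350, plus strand) holds a sterol response element of the form TCACNCCAC, and Per3 (chr4:151044666-151044915, minus strand) a pair of D-boxes, TTATGTAA, the letters bound by Dbp and Nfil3.
Igfbp1: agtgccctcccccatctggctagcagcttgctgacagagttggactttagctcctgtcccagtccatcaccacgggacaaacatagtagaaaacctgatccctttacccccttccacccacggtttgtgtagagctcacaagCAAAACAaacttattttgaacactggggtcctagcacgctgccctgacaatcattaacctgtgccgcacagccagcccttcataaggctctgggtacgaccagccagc
G6pc: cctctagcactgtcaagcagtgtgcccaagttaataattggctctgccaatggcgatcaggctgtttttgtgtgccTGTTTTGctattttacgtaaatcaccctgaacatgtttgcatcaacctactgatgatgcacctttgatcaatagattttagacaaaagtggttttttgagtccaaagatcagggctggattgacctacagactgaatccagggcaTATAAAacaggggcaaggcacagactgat
Btg2: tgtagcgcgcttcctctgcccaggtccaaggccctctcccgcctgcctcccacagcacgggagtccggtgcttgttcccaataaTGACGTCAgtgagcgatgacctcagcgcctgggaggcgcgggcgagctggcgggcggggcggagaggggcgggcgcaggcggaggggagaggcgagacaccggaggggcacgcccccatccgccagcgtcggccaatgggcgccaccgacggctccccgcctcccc
Maff: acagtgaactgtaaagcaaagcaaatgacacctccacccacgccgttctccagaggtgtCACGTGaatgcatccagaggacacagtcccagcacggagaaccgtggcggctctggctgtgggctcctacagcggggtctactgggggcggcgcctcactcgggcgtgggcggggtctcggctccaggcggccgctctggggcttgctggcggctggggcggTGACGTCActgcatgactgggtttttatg
Cidec: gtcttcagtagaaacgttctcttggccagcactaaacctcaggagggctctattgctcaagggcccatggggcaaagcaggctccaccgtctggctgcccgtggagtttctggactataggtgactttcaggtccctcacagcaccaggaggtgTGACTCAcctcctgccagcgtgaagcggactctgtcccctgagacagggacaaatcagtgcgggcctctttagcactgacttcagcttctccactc
Hmgcs1: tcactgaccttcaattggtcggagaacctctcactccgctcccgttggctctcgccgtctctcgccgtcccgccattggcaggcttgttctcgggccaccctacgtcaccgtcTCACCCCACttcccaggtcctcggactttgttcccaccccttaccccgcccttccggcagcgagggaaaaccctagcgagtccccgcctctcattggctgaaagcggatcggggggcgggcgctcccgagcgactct
Per3: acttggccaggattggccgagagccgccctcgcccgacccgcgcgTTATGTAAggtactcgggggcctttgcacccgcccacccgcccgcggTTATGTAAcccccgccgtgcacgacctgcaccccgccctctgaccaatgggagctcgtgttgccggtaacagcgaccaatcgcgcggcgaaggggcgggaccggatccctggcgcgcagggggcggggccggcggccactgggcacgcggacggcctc

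Over 15642 promoter windows of the genes compared, each of 300 bases with 250 before and 50 after the start site, the share holding each motif was counted for called genes and for the rest. The table held windows for 57.0% of the higher genes, 67.3% of the lower genes and 56.5% of the genes within 2-fold, and a gene can have several overlapping windows. The clearest contrast was the TATA box (TATAAA on the gene's strand within 50 bases before the start site), which 4.49% of windows of higher genes held, 1.56% of lower genes and 2.22% of all windows. The AP-1 motif was in 6.28% of windows of higher genes, 4.24% of lower genes and 4.28% of all. Forkhead letters (GTAAACA) ran the other way, with 2.83% for higher genes, 4.24% for lower genes and 3.02% of all. The cyclic AMP response element was in 2.97%, 1.94% and 2.72%, CAAAACA in 5.18%, 4.12% and 4.77%, the E-box in 9.73%, 8.86% and 9.09%, and the NF-kappaB motif in 6.00%, 4.56% and 5.08%, in the same order of groups. The sterol element was in 0.966%, 1.06% and 1.20%, the D-box in 0.759%, 1.06% and 0.722%, the palindromic STAT motif TTCCNGGAA in 1.17%, 1.06% and 1.24%, and the CArG box in 1.66%, 0.999% and 1.44%. Apart from the TATA box all were searched on both strands, and none of the motifs with fixed letters lies within another. Windows of higher genes were poorer in CpG, with a median of 13 CpG per window against 17 for lower genes and 18 for genes within 2-fold. These shares carry no test, and a match does not show that a factor was bound.

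Gene lists are given by their counts and median, to be read against 9.23% higher, 8.39% lower, 17.6% past 2-fold in either direction and a median of 0.06 over all genes compared. Immediate early genes, the first to be transcribed after a signal reaches the nucleus, had the highest median of the 50 gene lists examined. Of 25 members compared, 19 were at least 2-fold higher with TGZ and none lower, with a median difference of 2.31 (1.62 to 2.31 under the other scalings and background correction). Besides Atf3, Btg2 and Nr4a1, the farthest members were Ier3, a survival gene (3.36 with TGZ and 0.131 with RGZ, 25.6-fold), and Maff, a small MAF transcription factor (17.6 and 0.706, 24.9-fold). Their vehicle levels, 0.079 for Ier3 and 1.17 for Maff, lay beside those with RGZ. Phosphatases and other inhibitors that switch off MAP kinases, themselves induced by MAP kinase signals, were higher in 11 of 14 members and lower in none (median 1.41). The farthest were Dusp5 (13.9-fold), Dusp8 (11.5-fold), the RAS pathway inhibitor Spred2 (3.57-fold), Dusp2 (3.27-fold) and Dusp6 (3.15-fold). Of 13 Kruppel-like factors, zinc finger transcription factors of stress and metabolism, 5 were higher and none lower (median 0.74). Klf6 led at 39.3 with TGZ, 1.88 with RGZ and 2.88 with vehicle (20.9-fold), followed by Klf4 (5.35-fold), Klf11 (3.78-fold), Klf2 (3.5-fold) and Klf9 (2.6-fold).

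Targets of p53 and of DNA damage signalling were split: 9 of 21 were higher with TGZ and 2 lower, with a median of 0.18 that was -0.37 under spike-in scaling. Here and below, list medians under spike-in scaling carry a downward shift shared by all lists, so their change of sign is not particular to a list. The members farthest from 0 were on the higher side. Cdkn1a, the cell cycle inhibitor p21, stood at 43.9 with TGZ and 1.75 with RGZ (25.1-fold), Trp53inp1, a p53 cofactor, at 56.8 and 3.59 (15.8-fold), Gadd45b at 69.9 and 5.75 (12.1-fold) and Gadd45g at 390 and 34.4 (11.4-fold). The lower members were Ccng1 (cyclin G1, 2.21-fold) and Tnfrsf10b (the TRAIL death receptor, 2.21-fold). In the BCL2 family, which sets the threshold for mitochondrial cell death, 4 of 17 were higher and 1 lower. Protective Bcl2l1 (BCL-XL) was 14.1-fold higher at 263 against 18.7 and protective Mcl1 2.95-fold, beside the death-promoting members Bcl2l11 (BIM, 4.24-fold higher), Pmaip1 (NOXA, 2.24-fold higher) and Bik (3.73-fold lower). Cell cycle genes had 3 of 25 higher and 2 lower. Ccne1 (cyclin E1) was 3.12-fold higher, Mki67 2.29-fold and Mcm4 2.04-fold, while Aurka was 2.58-fold and Ccnd1 (cyclin D1) 2.15-fold lower.

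The stress pathways of protein synthesis and folding did not move as one. In the integrated stress response, the ATF4 programme that answers shortage of amino acids and faulty proteins, 10 of 23 members were higher with TGZ and none lower (median 0.90). Ddit4, an inhibitor of mTORC1, stood at 92.9 with TGZ, 5.05 with RGZ and 5.6 with vehicle (18.4-fold). Chac1, which degrades glutathione, stood at 52.8, 8.91 and 1.58 in that order (5.93-fold), so it was above vehicle with both compounds. Gdf15, a secreted stress signal, was 4.59-fold higher, Cebpb 3.55-fold and Asns (asparagine synthetase) 3.16-fold. Chaperones and degradation factors of the endoplasmic reticulum, induced by misfolded proteins through ATF6 and XBP1, were lower in 4 of 22 members and higher in none (median -0.51). Derl3, a factor of protein export for degradation, stood at 0.739 with TGZ, 4.76 with RGZ and 16.6 with vehicle, 6.45-fold lower with TGZ than with RGZ. Sdf2l1 was 3.17-fold lower, the disulfide isomerase Pdia4 2.27-fold and Creld2 2.09-fold. Heat shock proteins had 2 of 16 higher and 3 lower. Hspb8 was 3.03-fold higher and Dnaja1 2.25-fold lower, another probe of Dnajb4 went against its 3.06-fold lower value, and the near-identical Hspa1a (2.44-fold higher) and Hspa1b (4.85-fold lower) cannot be told apart with confidence by probes.

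Antioxidant genes differed between the compounds in single members. Of 22 targets of NRF2, the main transcription factor of the response to electrophiles, 3 were higher and 1 lower, close to the share over all genes, with a median of 0.14 (-0.11 after quantile normalization and -0.41 under spike-in scaling). Hmox1, heme oxygenase 1, stood at 86.2 with TGZ, 7.48 with RGZ and 4.58 with vehicle (11.5-fold higher). Srxn1, sulfiredoxin, stood at 115, 22.8 and 23.6 (5.04-fold higher), the transporter gene Abcc4 was 2.82-fold higher, and Osgin1 2.43-fold lower. The classic members Nqo1, Gclc and Gclm, chosen after their values were seen, were within 2-fold at -0.40, 0.70 and -0.66. Srxn1 was the member that differed most between the pairs, with 0.06 between BSO plus TGZ (107) and BSO plus RGZ (103). Among 21 genes of glutathione and sulfur amino acids, 5 were higher and 2 lower. Mat2a (methionine adenosyltransferase 2A, 3.43-fold) and Cth (cystathionine gamma-lyase, which makes cysteine, 3.34-fold) were higher, as was Gpx3 (2.67-fold). Chac2 was 6.14-fold lower and Csad, which leads to taurine, 2.13-fold lower. In iron and metal handling, Slc39a14, an importer of zinc and iron, was 5.29-fold higher at 204 against 38.6, while the iron exporter Slc40a1 (ferroportin, 5.76-fold) and the transferrin receptor Tfrc (3.01-fold) were lower, and the other 12 of 15 members were within 2-fold.

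Inhibitors of cytokine signals and feedback genes of NF-kappaB are transcribed when those signals arrive. Their list also held the receptor genes Cd14, Tlr2 and Tlr4 and the RNA stabiliser Arid5a. Of its 23 members compared, 14 were higher with TGZ and 1 lower (median 1.23), Cd14 and Arid5a having the largest differences. Socs1 stood at 3.39 with TGZ and 0.198 with RGZ (17.1-fold), and Socs3, which blocks interleukin 6 signals, at 96.1 and 6.18 (15.6-fold). Nfkbie was the member on the lower side (3.2-fold). Of 23 cytokines and chemokines 6 were higher and 3 lower, with a median of 0.36 that was -0.19 under spike-in scaling. Cxcl1, which attracts neutrophils, stood at 169 with TGZ, 7.97 with RGZ and 3.83 with vehicle (21.3-fold), and its relative Cxcl2 was at least 5.3-fold higher. Osm (oncostatin M) was at least 4.28-fold and Il10 at least 4.16-fold higher. All 3 genes were not well above background with RGZ and were dim with TGZ, at 0.265 for Cxcl2, 0.214 for Osm and 0.208 for Il10. Intervals around these bounds were wide, 1.35 to 20.8 for Cxcl2, 1.29 to 14.2 for Osm and 0.57 to 30.4 for Il10, the last including no difference. They use the relative error of spots dimmer than the floor, so they do not limit the folds themselves. Cxcl12, a chemokine of stromal and endothelial cells, was 2.9-fold lower and Cxcl16 2.17-fold lower.

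Acute phase proteins, which hepatocytes secrete in inflammation, did not follow the signalling genes. Of 24 members 4 were higher and 4 lower, with a median of 0.36 that was -0.10 after quantile normalization and -0.19 under spike-in scaling. Il1rn, the interleukin 1 receptor antagonist, stood at 24.1 with TGZ, 1.37 with RGZ and 0.386 with vehicle (17.7-fold higher). Lcn2 (lipocalin 2) stood at 858, 273 and 9.63 (3.14-fold higher) and Serpina3n at 333, 113 and 23.6 (2.96-fold higher), so both compounds lay above vehicle. Saa3 went the other way at 22.5 with TGZ, 107 with RGZ and 2.64 with vehicle (4.76-fold lower with TGZ), with Saa4 2.78-fold, Apcs (serum amyloid P) 2.16-fold and Orm3 2.23-fold lower, the last against another probe of the gene. Saa1, chosen after its values were seen, was at 2011, 1485 and 17.5, a difference of 0.44. Probes of the Saa genes can share sequence, so the division of signal among them is uncertain. Interferon-stimulated genes were even, with 2 of 23 higher (Rsad2 6.31-fold, Oasl1 2.99-fold) and 2 lower (the immunoproteasome subunit Psmb9 4.0-fold, Gbp2 2.55-fold).

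Genes of clotting and its control held several of the large differences. Of 24 members 6 were higher and 2 lower (median 0.16, and -0.06 after quantile normalization). Thbd (thrombomodulin, the endothelial anticoagulant) was 20.4-fold higher, Plaur (the urokinase receptor) 10.8-fold and Vwf (von Willebrand factor) 8.81-fold. F3, tissue factor, was 4.36-fold lower at 0.28 against 1.22, and F8 2.01-fold lower. In the complement list Cfd was the single member past 2-fold among 24.

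Markers of other cell types moved with several of these groups, and in bulk RNA fewer cells of a type and less RNA per cell cannot be told apart. Of 15 neutrophil markers compared, 9 were higher with TGZ and none lower (median 1.44), and their summed level was 263.9 with TGZ, 123.5 with RGZ, 264.0 with BSO plus TGZ, 130.8 with BSO plus RGZ and 115.0 with vehicle. S100a8 stood at 25 with TGZ and 4.41 with RGZ (5.66-fold), S100a9 at 104 and 17.3 (5.99-fold), Retnlg was 19.3-fold, Cxcr2 9.52-fold and Mmp8 6.81-fold higher. Ly6g, the surface marker that defines mouse neutrophils, did not follow, with 0.683 with TGZ, 0.971 with RGZ and 1.11 with vehicle, and granule genes Mpo (-0.70), Elane (0.38) and Camp (0.46) were within 2-fold. The part of these cells in the cytokine, NF-kappaB and interleukin 1 gene differences above was not tested.

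Kupffer cell and macrophage markers had 2 of 19 higher and 3 lower (median -0.38) between TGZ and RGZ, 2 higher and 1 lower (median 0.23) between BSO plus TGZ and BSO plus RGZ, and a summed level of 108.0 with TGZ, 124.5 with RGZ, 140.2 with BSO plus TGZ, 116.4 with BSO plus RGZ and 122.5 with vehicle. Cx3cr1 and Ms4a7 (at least 3.51-fold) and the scavenger receptor Marco (3.3-fold) were lower, and Cd68 (2.43-fold) and Ccr2 (at least 3.02-fold), the receptor of incoming monocytes, higher. Clec4f, which defines Kupffer cells, was at 11.9 with TGZ, 11.6 with RGZ and 13.1 with vehicle. Sinusoidal endothelial markers were split, with 4 of 18 higher and 6 lower (median -0.28) and summed levels of 90.9 with TGZ and 92.2 with RGZ. Between BSO plus TGZ and BSO plus RGZ 3 were higher and 1 lower (median 0.24), with summed levels of 112.4 and 86.3. Without BSO, Vwf and Lyve1 (5.19-fold) were higher with Cdh5 (2.5-fold) and Robo4 (2.08-fold). The 6 lower markers included the VEGF receptor Kdr (3.15-fold) and Clec14a (at least 2.64-fold).

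Bile duct markers had 4 of 12 higher and none lower (median 0.72), with a summed level of 917.4 with TGZ, 342.4 with RGZ, 551.9 with BSO plus TGZ, 362.8 with BSO plus RGZ and 328.3 with vehicle. Most of that sum came from Krt8 (346 with TGZ and 75.7 with RGZ, 4.57-fold) and Krt18 (555 and 259, 2.14-fold), keratins that hepatocytes also make. Sox9, a duct and progenitor factor, was 12.9-fold higher at 4.55 against 0.352, and duct-type Krt19 and Spp1 were within 2-fold (0.87 and 0.83). Stellate cell and fibroblast markers had 4 of 17 higher and 1 lower (median 0.73), with Cnn1 at least 14-fold, Tagln 2.28-fold, Des 2.05-fold and Hgf 2.05-fold higher and Lrat 2.51-fold lower. Adipocyte markers had 5 of 9 higher (median 1.37), led by Cfd, Cidec and Fabp4, which are also PPAR gamma targets. Lep (0.64) and Pparg (-0.49) were within 2-fold and Adipoq was not well above background on either array. The summed adipocyte level was 264.5 with TGZ, 152.8 with RGZ, 214.1 with BSO plus TGZ and 91.3 with BSO plus RGZ. With vehicle that sum was 367.7, the highest of the 5 arrays. Of 13 lymphocyte markers none was higher and 2 were lower. Their summed level nevertheless was 48.9 with TGZ, 31.6 with RGZ, 44.5 with BSO plus TGZ, 27.7 with BSO plus RGZ and 49.8 with vehicle. Of 8 erythroid markers 2 were higher and 1 lower, with a summed erythroid level of 509.2 with TGZ, 292.9 with RGZ and 501.1 with vehicle. Hepatocyte markers had 1 of 18 past 2-fold, Tat (tyrosine aminotransferase, 3.0-fold higher), and a median of 0.47 that was -0.01 after quantile normalization and -0.08 under spike-in scaling.

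Among hormone-controlled genes of glucose metabolism, the insulin list ran mostly to the higher side, while the glucose list had no shared direction. In the insulin, FOXO1 and IGF list 8 of 24 were higher and 1 lower (median 0.58). Irs2, an insulin receptor substrate that FOXO1 induces, stood at 59.5 with TGZ, 5.43 with RGZ and 5.75 with vehicle (11-fold higher). Socs2, which blocks growth hormone signals, was 10.8-fold higher and the coactivator Ppargc1a (PGC-1 alpha) 8.56-fold, whereas the glucocorticoid target Tsc22d3 (GILZ) was 3.85-fold lower at 5.64 with TGZ, 21.7 with RGZ and 52 with vehicle. In the glucose list 7 of 24 were higher and 4 lower (median 0.03). Pdk4, Ppp1r3g and Got1 (cytosolic aspartate aminotransferase, 577 with TGZ, 30.5 with RGZ, 82.7 with vehicle, 18.9-fold) were higher with Pfkfb3, which drives glycolysis (11-fold). G6pc was lower, together with the glycogen-targeting subunit Ppp1r3c (6.04-fold) and liver pyruvate kinase Pklr (3.89-fold). Igfbp1 and G6pc, whose promoters above carry the same CAAAACA letters, lay on opposite sides, and the part of those letters was not tested. Pck1, the other classic gluconeogenic enzyme, chosen after its values were seen, was at 147 with TGZ, 163 with RGZ and 184 with vehicle, within 2-fold. Hypoxia targets and glycolysis genes had 7 of 25 higher and none lower, with Ndrg1 (8.53-fold), the lactate exporter Slc16a3 (6.74-fold), Hif1a itself (4.82-fold), the glucose transporter Slc2a1 (4.61-fold) and Adm (2.7-fold) farthest from 0.

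Among genes of lipid synthesis, more were lower than higher with TGZ. Cholesterol synthesis and uptake, run by the transcription factor SREBP2, had 7 of 24 lower and 2 higher (median -0.66). Mvd, mevalonate diphosphate decarboxylase, stood at 0.168 with TGZ, 0.842 with RGZ and 1.81 with vehicle (5.01-fold lower), and Hmgcs1, HMG-CoA synthase, at 6.99, 19.97 and 57.1 (2.86-fold lower), so RGZ too lay below vehicle. Fdps (farnesyl diphosphate synthase) was 2.76-fold lower, while Pmvk (phosphomevalonate kinase) was 3.1-fold higher. Fatty acid and triglyceride synthesis had 6 of 23 lower and 2 higher (median -0.35). Fasn, fatty acid synthase, stood at 10.3 with TGZ, 132 with RGZ and 194 with vehicle (12.7-fold lower, interval 9.66 to 16.8), and its regulator Srebf1 at 18.3, 93.2 and 91.1 (5.08-fold lower). With BSO in both groups the differences were smaller, at -0.98 for Fasn and -0.10 for Srebf1, and the list medians were -0.06 for fatty acids and -0.08 for cholesterol. Lpin1 (lipin 1, 5.9-fold) and the lipogenic Thrsp (3.01-fold) were higher with TGZ.

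**Figure D3:**
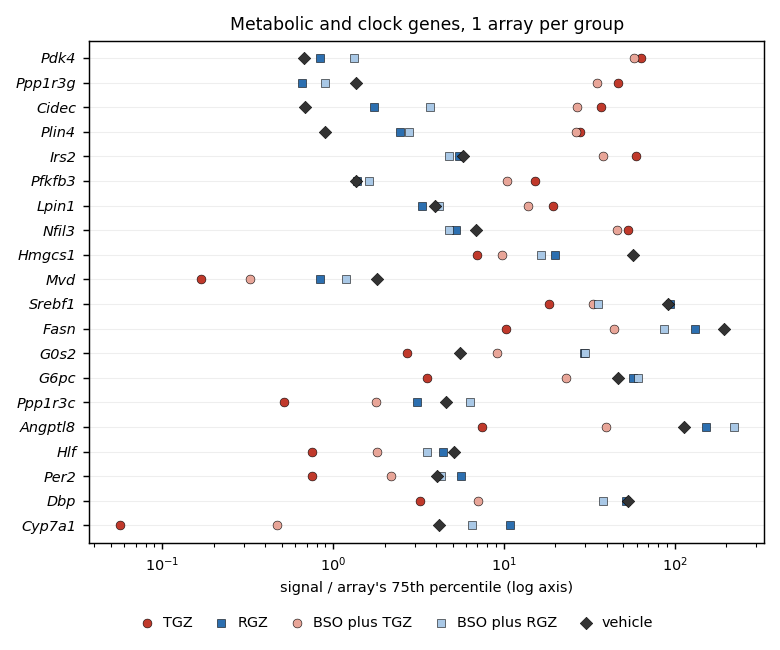
Levels of metabolic and clock genes described in the text on all 5 arrays, as multiples of the array's 75th percentile on a log axis; each point is 1 array of pooled RNA. Genes at the top (Pdk4 to Nfil3) have both TGZ circles right of the RGZ squares, and those below (Hmgcs1 to Cyp7a1) have them to the left; for Srebf1 the BSO pair lies almost together.

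Targets of PPAR gamma and coats of lipid droplets, the genes thiazolidinediones are known to induce in fat, were higher with TGZ in 7 of 22 members and lower in 1 (median 0.55, and 0.00 under spike-in scaling). Cidec, which fuses lipid droplets, stood at 36.9 with TGZ, 1.75 with RGZ, 26.8 with BSO plus TGZ, 3.69 with BSO plus RGZ and 0.688 with vehicle, so all treated arrays lay above vehicle and the TGZ arrays highest (21.1-fold over RGZ). The droplet coat gene Plin4 showed the same order at 28, 2.46 and 0.893 with TGZ, RGZ and vehicle (11.4-fold), Fabp4 was 5.82-fold higher and Cidea at least 15.2-fold. G0s2, an inhibitor of the lipase ATGL, ran the other way at 2.7 with TGZ, 29.3 with RGZ and 5.54 with vehicle (10.9-fold lower with TGZ). Pparg itself was at 4.29 with TGZ and 6.03 with RGZ, a difference of -0.49 (interval -0.89 to -0.09). Targets of PPAR alpha, the receptor of fatty acid oxidation, had 5 of 33 higher and 2 lower, close to the share over all genes (median 0.05, and -0.20 after quantile normalization). Cpt1b (3.35-fold) and Ucp2 (2.96-fold) were higher with Pdk4 and Ppargc1a, Acot3 (3.98-fold) and Acot4 (2.71-fold) lower, and Cpt1a, chosen after its values were seen, stood at 60.4 with TGZ, 62.2 with RGZ and 31.2 with vehicle.

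Bile acid genes had 3 of 24 higher and 4 lower (median 0.14, and -0.08 after quantile normalization). Next to Cyp7a1, the lower genes included the bile acid receptor Nr1h4 (FXR) at 9.63 with TGZ, 37 with RGZ and 26.8 with vehicle (3.84-fold) and its target Nr0b2 (SHP), a repressor of Cyp7a1, at 0.156, 0.977 and 1.84 (6.27-fold). The sterol exporters Abcg5 (2.25-fold) and Abcg8 (2.15-fold) and the basolateral exporter Abcc4 were higher. Abcb11, the bile salt export pump, chosen after its values were seen, was at 87.7 with TGZ and 92.2 with RGZ, a difference of -0.07 (interval -0.47 to 0.33). Among 23 lipoprotein genes and targets of the sterol receptor LXR, 2 were higher, Abca1 (3.91-fold) and Apoa4 (2.71-fold). The 3 lower were Angptl8, Abcg1 (2.5-fold) and Lipg (at least 3.22-fold, with an interval around that bound of 0.445 to 23.3, which included no difference).

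Most drug-metabolizing genes on the lists were within 2-fold between the compounds. Of 33 cytochromes P450 of families 1 to 3 and their regulators, 2 were higher, Cyp1a1 (2.38-fold, 0.211 against 0.0888) and the receptor Ahr that induces it (2.12-fold), and none was lower (median 0.18, and -0.03 after quantile normalization). Cyp3a11 and Cyp2b10, mouse genes that the drug sensors PXR and CAR induce, were at 86.2 and 302 with TGZ and 87.9 and 298 with RGZ, differences of -0.03 (interval -0.43 to 0.37) and 0.02 (interval -0.38 to 0.42), and were chosen after their values were seen. Of 28 conjugating enzymes 1 was higher, the estrogen sulfotransferase Sult1e1 (6.8-fold), and 2 lower, Ugt1a6a (5.01-fold) and Sult3a1 (2.63-fold). In the Hsd3b family and related steroid enzymes Srd5a1 (4.05-fold) and Hsd3b2 (2.5-fold) were lower among 16, and probes of this family can share sequence. A difference within 2-fold on 1 pool per compound does not show that TGZ and RGZ act alike on these genes.

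Circadian clock genes differed in both directions. Of 19 clock genes 7 were lower and 3 higher with TGZ, with a median of 0.18 that was -0.37 under spike-in scaling. Between BSO plus TGZ and BSO plus RGZ 1 of 18 was lower and 4 were higher. Per2, a repressor of the clock, stood at 0.753 with TGZ, 5.57 with RGZ and 4.05 with vehicle (7.4-fold lower), and Per3 was at least 13.7-fold lower. Among the D-box binding factors, the activators Dbp and Hlf were lower, Hlf, an additional example chosen after its values were seen, by 5.82-fold, and the repressor Nfil3 was 10.1-fold higher at 53.2 with TGZ, 5.25 with RGZ and 6.88 with vehicle. Arntl (BMAL1), the activator at the core of the clock, was 3.78-fold higher than with RGZ. It stood at 0.414 with TGZ, 0.11 with RGZ and 0.386 with vehicle, so here TGZ lay beside vehicle. Bhlhe41 was at least 2.12-fold higher, with an interval around that bound of 0.74 to 6.08, which included no difference.

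Liver-enriched transcription factors had the lowest median of the 50 lists, -0.80, with 8 of 25 lower and 4 higher with TGZ. Tbx3, a WNT-dependent factor of the zone around the central vein, stood at 2.08 with TGZ, 14.9 with RGZ and 9.07 with vehicle (7.18-fold lower), Nr2f2 (COUP-TFII) was 4.77-fold and the retinoid receptor gene Rxrg 3.97-fold lower. Bhlha15 (MIST1), a factor of secretory cells, stood at 0.127 with TGZ, 1.48 with RGZ and 0.0167 with vehicle, where it was not well above background, so it was 11.7-fold lower with TGZ than with RGZ while both lay above the vehicle signal. The inflammation-induced Cebpd (4.44-fold) and Cebpb, and Gata6 (3.35-fold), were higher. In WNT, BMP, activin and Hedgehog signalling 9 of 27 were lower and 3 higher (median -0.15). Lgr5, a WNT target of cells around the central vein, was 6.6-fold lower with Wnt5b. Glul, Cyp2e1 and Cyp1a2, also genes of that zone and picked afterwards from other lists, were within 2-fold. The activin subunits diverged, Inhba being 10.02-fold lower and Inhbb 19.9-fold higher. Inhbb stood at 11.2 with TGZ, 0.565 with RGZ and 0.48 with vehicle. Id1, a BMP target, was 6.25-fold higher and Gli1 at least 3.07-fold.

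Genes of the basic machinery differed little. None of 33 cytosolic ribosomal proteins, 32 mitochondrial respiratory chain subunits, 30 proteasome subunits and 20 aminoacyl tRNA synthetases was past 2-fold in either direction, and their medians were 0.35, 0.27, -0.13 and -0.21. After quantile normalization the ribosomal median was 0.03. Ribosome biogenesis factors had 6 of 26 higher and none lower, with Heatr1 (5.25-fold), Rrp1b (3.43-fold) and Nop58 (2.91-fold) farthest from 0. Their median of 0.32 was near that of the ribosomal proteins. Between BSO plus TGZ and BSO plus RGZ, 2 of 26 were higher and the median was -0.01. Polyamine genes had 4 of 10 higher, Sat1 (4.78-fold), Smox (3.43-fold), Azin2 (3.35-fold) and Odc1 (2.17-fold), which catalyse or regulate the first step of synthesis and the breakdown of polyamines. Amino acid transporters had 3 of 19 higher and 1 lower: besides Slc7a6, Slc38a2 (SNAT2, which amino acid shortage induces) was 9.17-fold and Slc7a1 5.07-fold higher, and the taurine transporter Slc6a6 2.2-fold lower. Of 14 urea cycle genes, the ornithine carrier Slc25a15 (2.31-fold higher) was the single one past 2-fold.

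**Figure D4:**
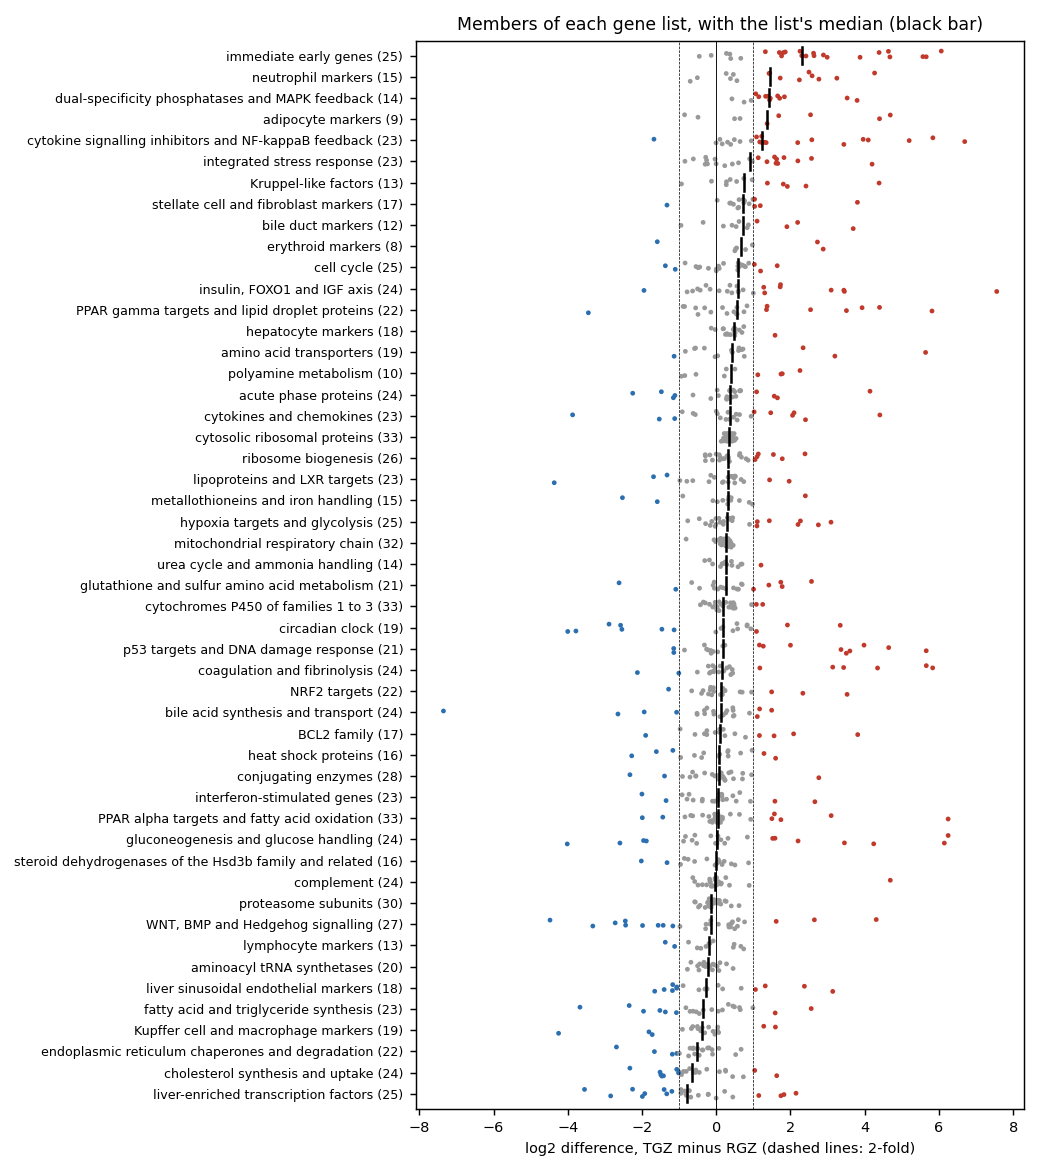
Log2 difference, TGZ minus RGZ, of each compared member (point) of 50 gene lists ordered by their median (black bar), with the number of members in brackets; red points are at least 2-fold higher with TGZ and blue points at least 2-fold lower, and dashed lines mark 2-fold. Immediate early genes sit at the top with a median of 2.31 and liver-enriched transcription factors at the bottom with -0.80.

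The same compounds were compared in other pools of mice that also received BSO, which share no array with the pair above. Between BSO plus TGZ and BSO plus RGZ, 1775 of 21363 genes were at least 2-fold higher (8.31%) and 1124 lower (5.26%). Across the 20800 genes compared in both pairs the differences correlated with r = 0.857 (Spearman's rho = 0.796), a description across genes, which are not independent replicates. Of the genes higher with TGZ without BSO, 1278 were also at least 2-fold higher with it (64.4% of the calls without BSO and 72.0% of those with BSO), and of the lower genes 860 were also lower (47.6% and 76.5%). The sign was the same in both pairs for 1871 of the 1912 higher calls that were also compared with BSO (97.9%) and for 1734 of the 1791 lower calls (96.8%), against 80.1% of all 20800 genes. Large differences were fewer in the BSO pair, more so on the lower side: at 4-fold 466 genes were higher and 71 lower with BSO, against 580 and 366 without it. Immediate early genes (2.31 without and 2.13 with BSO) and MAP kinase feedback genes (1.41 and 1.16) had like medians in both pairs, the integrated stress response 0.90 and 0.37, and lipid synthesis medians close to 0 with BSO as given above. Chaperones of the endoplasmic reticulum were at -0.51 without and -0.65 with BSO, where Derl3 differed by -3.66.

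**Figure D5:**
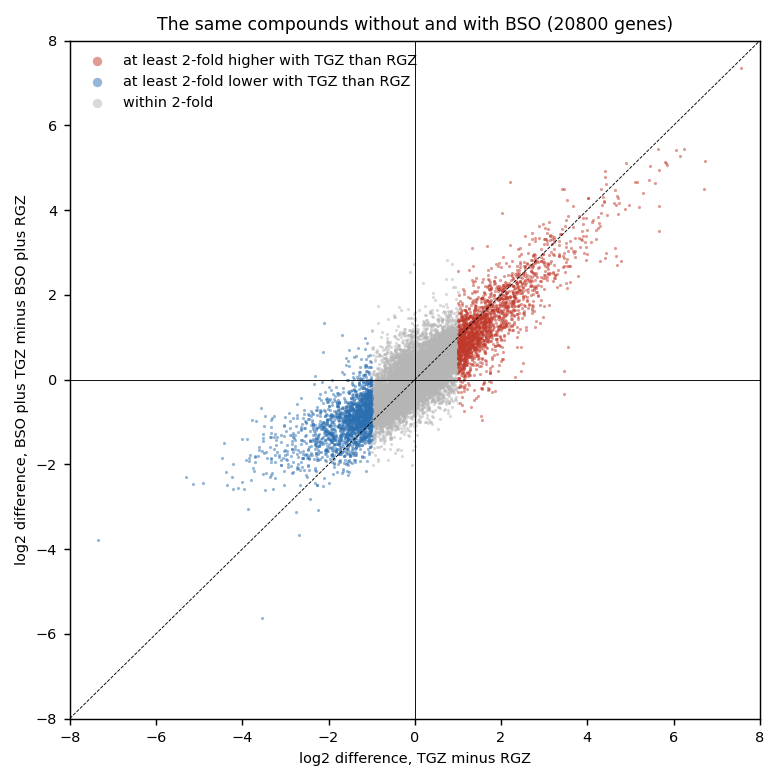
Log2 difference of BSO plus TGZ minus BSO plus RGZ (vertical) against that of TGZ minus RGZ (horizontal) for the 20800 genes compared in both pairs, with bounds plotted at the bound; the dashed line marks equal differences. Most red and blue points lie on the same side of 0 in both pairs. The colours go by the difference without BSO, so that choosing them favours a smaller difference on the vertical axis.

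Set beside vehicle, RGZ was the nearer of the compounds for most called genes. The vehicle level was nearer that of RGZ for 89.9% of the genes higher with TGZ and 92.3% of those lower, against 70.7% of all genes compared. All 3 values of a gene enter this count, so it describes the arrays and is not a separate comparison. Genes that departed from it included Saa3, G0s2 and Bhlha15, for which RGZ lay farther above vehicle than TGZ did or on the other side of it, and Arntl, for which RGZ lay below and TGZ beside vehicle.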

How the data were processed

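RNA pooled from 6 livers was hybridised to a single-colour Agilent array for each group, and the 5 arrays were on 1 slide. The deposited array files give spot signals as intensity. Agilent Feature Extraction 12.0.3.1 had subtracted background and removed trends, per the file headers. The deposited files also carry 0 or 1 flags for spots well above background. A value table, also deposited, is on a log2 scale. For at least 99.98% of probes it lay within 0.05 of the log2 spot signal shifted by a single constant for the array, with column medians of 4.01 for TGZ, 4.00 for RGZ, 4.07 for BSO plus TGZ, 3.92 for BSO plus RGZ and 4.02 for vehicle, which shows scaling between arrays and no centring of genes. Which software did this is not given in sources used here.

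Spots of a probe were averaged, log2 was taken and the array's 75th percentile subtracted. Each gene was represented by its brightest probe on average over the 5 arrays. Probe positions are mm9. Of the 21516 gene names compared, 15689 were symbols of the RefSeq table. Measurement error combined the software's error of both spots (median SD 0.205 on the log2 scale). With 1 array per group no test was run, and precision is limited by the number of arrays. A median or a count describes these arrays. The steps were tested on simulated data with known changes, using Python 3.11.15, numpy 2.4.6, pandas 2.3.3, R 4.3.3 and limma 3.58.1.

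The members and the 50 gene lists (1052 genes, 1042 found on the array, 1002 compared) were chosen with earlier results of these data known. Named genes are in each direction the 15 largest measured differences whose other well measured probes all had the same sign, the 4 largest bounds in each direction, up to 5 members per list past 2-fold and up to 2 in the other direction, and genes of opposite sign in the BSO pair. Others were chosen after their values were seen, and some genes are not reported here. No per-sample column was left unused as belonging to another series. Alternatives were other scalings, normexp background correction (offset 50), filters, probe summaries and fold limits.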

Additional observations from a re-analysis of the deposited data

Results flagged for a closer look

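Among genes at least 2-fold different between TGZ and RGZ, 2 differed by at least 2-fold in the opposite direction when BSO was given with both compounds, and the difference between the pairs was not tested. Nrep, which encodes a neuronal regeneration related protein, had levels of 1.43 with TGZ and 6.18 with RGZ, 4.31-fold lower with TGZ. With BSO the levels were 4.19 for BSO plus TGZ and 1.66 for BSO plus RGZ, a log2 difference of 1.34, and the vehicle level was 9.87. Sulf2, a sulfatase that edits heparan sulfate at the cell surface, had levels of 4.35 with TGZ and 14.0 with RGZ, 3.21-fold lower with TGZ. With BSO they were 3.95 for BSO plus TGZ and 1.89 for BSO plus RGZ, a log2 difference of 1.06, and the vehicle level was 2.75. For Sulf2 the RGZ array stood apart from the other 4, while for Nrep both TGZ and BSO plus RGZ lay below the rest.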

How the results depend on the processing

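The counts of genes at least 2-fold higher and lower with TGZ, 1985 and 1806, were 951 and 844 with normexp background correction, 965 and 4638 under spike-in scaling, 3750 and 2773 with no filter on dim probes, 580 and 366 at 4-fold and 4173 and 3650 at 1.5-fold. Spike-in scaling moved the median difference of all genes from 0.06 to -0.47, other scalings to between 0.00 and 0.07, so the share of higher against lower calls depends on the choice of scale. The other alternatives, which were the deposited log2 table, median and quantile scaling, signal on both arrays, the submitters' flags and the mean or median of a gene's probes, gave 1577 to 1984 higher and 1467 to 1874 lower, and leaving out genes with a well measured probe of opposite direction, an alternative added after seeing the data, gave 1934 and 1704. The correlation with the BSO pair, 0.857, was 0.896 with normexp and 0.866 over genes well above background on all 5 arrays. Of 226 named genes past 2-fold, none changed direction under the scalings, and 183 with normexp, 198 under spike-in scaling and 222 after quantile normalization were still past 2-fold in the same direction. With the submitters' flags 224 were. Spike-in scaling lowers every difference measured on both arrays by the same amount, so signs of list medians that change under it carry no information on the lists. Quantile normalization, which is not a uniform shift, kept the sign of the median in 35 of 50 lists, and normexp in 44 of 50. The sign of a list median near 0 therefore depends on the processing. Relative to the median of all genes, the median of immediate early genes was 2.25, against 2.23 under spike-in scaling, 2.31 after quantile normalization and 1.55 with normexp, and that of liver-enriched transcription factors -0.86, against -0.88, -0.87 and -0.90. No paired analysis was possible because each group had 1 array, and leaving out a replicate could not be done for the same reason.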
